A study of Saccharomyces cerevisiae with 12 samples.

Results

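The genes described here are 8 budding yeast genes whose products bind or methylate RNA in meiosis. They are IME4 (YGL192W), MUM2 (YBR057C), SLZ1 (YNL196C), MER1 (YNL210W), NAM8 (YHR086W), RIM4 (YHL024W), PES4 (YFR023W) and MIP6 (YHR015W). They were chosen by name, and their array identifiers pick out 8 of the 6293 genes on the arrays. All 8 belong to the 6283 genes that could be tested because no time lacked a value. Total RNA of strain SK1, which is widely used for its rapid and synchronous sporulation, was hybridised to 24 spotted 2-colour arrays. Each of 12 samples pooled cells of 6 cultures grown alongside each other and was taken at 0.0, 0.5, 1.0, 1.5, 2.0, 2.5, 3.5, 4.0, 4.5, 5.0, 5.5 or 6.0 h of sporulation. Every sample shared an array with time-zero RNA and was run again with the dyes reversed. On A arrays the RNA of the time was labelled with Cy5, and on B arrays with Cy3. The labels give no genotype beyond the strain.

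In meiosis, yeast controls many messages after they are made. Ime4, Mum2 and Slz1 form the core of the complex that places a methyl group on adenosines inside messenger RNA, a mark that yeast uses mainly in meiosis. Mer1 turns on the splicing of a few meiotic transcripts and needs Nam8, a protein of the U1 small nuclear particle that recognises the start of introns. Rim4 holds middle and late messages back from translation until the divisions, and the paralogs Pes4 and Mip6 act on the translation and stability of some of the same kind of message.

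Values are log2 ratios of the RNA of a time over time-zero RNA, with the 2 spots of a gene averaged on each array. The average of the A and B arrays is called the mean of a time. Times were grouped into an early window (0.5 to 2.0 h, 4 samples), a middle window (2.5 to 4.5 h, 4 samples) and a late window (5.0 to 6.0 h, 3 samples), with 0.0 h alone as zero. Differences between windows come from limma with Benjamini-Hochberg adjustment over all tested genes, and a gene is called at an adjusted p under 0.05. Both arrays of a sample are repeats of 1 RNA and were averaged first, so the standard error (SE) and the p-value measure how far successive pooled samples of a window lie apart, real change over those hours included. In such bulk samples, fewer cells expressing a gene and less of its RNA per cell cannot be told apart.

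Some arrays stood apart from their partners. Across genes, which are not independent replicates, the dye-reversed partners correlated weakly: r was -0.02 at 6.0 h, -0.01 at 5.0 h and at most 0.58, at 1.5 h, and its median was 0.27. All 7 meiotic marker genes checked were measured, except 1 on 2 of the late arrays. The median of their ratios was 4.27 on the 5.0 h B array, 1.29 and 4.42 on the 5.5 h A and B arrays and 4.40 on the 6.0 h A array. It was -0.18 on the 5.0 h A array and 0.20 on the 6.0 h B array, and these 2 arrays correlated with the other late arrays at no more than 0.33 and 0.10. On the 4.5 h arrays the median was -0.11 and -0.23. At 0.0 h, time-zero RNA met time-zero RNA, yet the marker median was 2.15 on the A array and 0.02 on the B array. Late results are therefore also given without the 5.0 h A and 6.0 h B arrays. That choice was made after seeing the data. Genes that read low on these 2 arrays read higher late without them, so it is no independent check.

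Over the 11 later times the 2 arrays gave the same sign in 51 of 88 pairs for the 8 genes (58.0%), beside 56.9% over all tested genes. At 4.5 and 5.5 h, 7 of the 8 genes had the same sign on both arrays; at 2.5 h 2 did and at 6.0 h 3 did. The spread of the difference between the arrays puts an error of 0.24 (NAM8) to 1.67 (PES4) on the mean of a time. IME4, MUM2, MER1 and NAM8 had errors of 0.60 or less, while MIP6, RIM4 and SLZ1 had 1.36, 1.24 and 1.64. These errors are pooled over all 12 times and exceed 1 log2 unit for PES4, MIP6, RIM4 and SLZ1. The disagreement itself varied with time. For PES4, A minus B was -0.15 at 2.0 h and -8.86 at 5.0 h, and for RIM4 -5.41 at 2.0 h and 0.27 at 5.5 h. A single mean can therefore be better or worse than its pooled error.

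**Figure D1:**
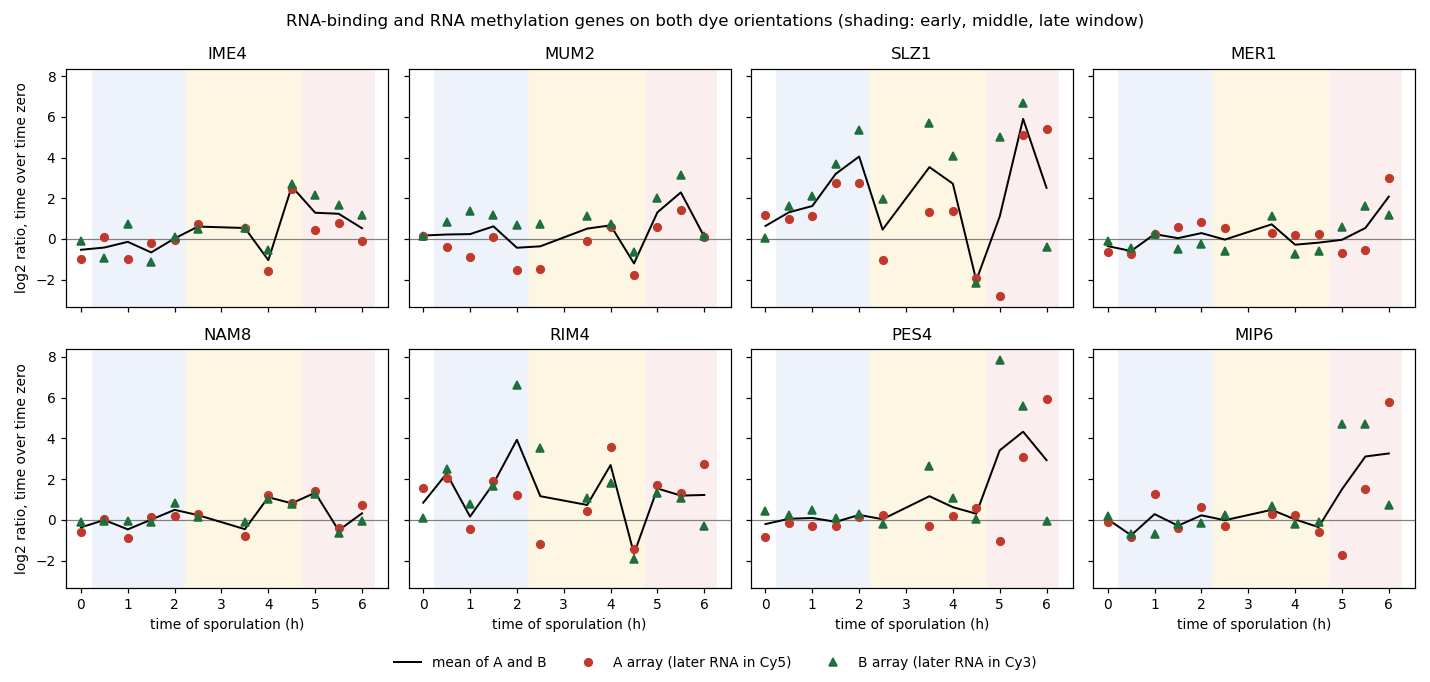
Log2 ratio of each time over time zero (vertical axis) against hours of sporulation (horizontal axis) for the 8 genes, with circles for A arrays, triangles for B arrays and a line for their mean. At 4.5 h IME4 lies above 2 and SLZ1 and RIM4 lie below -1 on both arrays, and PES4 and MIP6 leave the region near 0 in the late window, where their A and B arrays lie far apart at 5.0 and 6.0 h.

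Among the genes of the methylation complex, IME4 encodes the catalytic subunit. Its means ran -0.53 at 0.0 h, then -0.42, -0.14, -0.66 and 0.03 in the early window. In the middle window they were 0.61, 0.54, -1.04 and 2.58, and in the late window 1.29, 1.24 and 0.53. The 4.5 h sample was the highest on both arrays, at 2.45 (A) and 2.71 (B), and the 4.0 h sample just before it had the lowest mean, from -1.55 and -0.52. The 3 late means lay above all 4 early means, but they lay within the range of the middle window.

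The window differences of IME4 did not pass the test. Middle minus early was 0.97 ± 0.57 (SE, n = 4 against 4, limma adjusted p = 0.754) and late minus middle 0.35 ± 0.61 (n = 3 against 4, adjusted p = 0.809). Late minus zero was 1.55 ± 0.92 (n = 3 against 1, adjusted p = 0.546). The later RNA stood above the 95th percentile of the blank spots on 17 of 22 later arrays, so most IME4 ratios rest on measured signal.

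MUM2 encodes the structural partner of Ime4, related to a subunit of the mammalian methyltransferase. Its means were 0.17 at 0.0 h and 0.22, 0.24, 0.62 and -0.43 in the early window. They were -0.36, 0.51, 0.67 and -1.20 in the middle window and 1.31, 2.29 and 0.11 in the late window. The 5.5 h sample was the highest on both arrays, at 1.41 (A) and 3.16 (B), and 4.5 h held the lowest mean. The A array read below the B array at each of the 11 later times, by 1.23 on average over all 12, so the sign of single MUM2 readings depended on the dye at several times. At 2.0 h, for example, the arrays gave -1.54 and 0.69.

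MUM2 in the late window was 1.33 ± 0.53 above the middle window, a 2.52-fold difference with an unadjusted p = 0.0261 and an adjusted p = 0.195 in limma. The windows overlapped, since 0.11 at 6.0 h lay inside the middle range. Without the 6.0 h sample, which had the lowest late mean, the difference was 1.90 ± 0.52 and passed the test, with an adjusted p = 0.0482. Without both the 5.0 h and 6.0 h samples, a setting chosen after seeing the data, the difference was 2.38. That value rests on the 5.5 h sample as the only late one, and it held the highest MUM2 mean of the series. Late minus zero was 1.07 ± 0.80 (adjusted p = 0.645). With a ratio of 0 standing in for the single zero sample, the late window was at 1.24 ± 0.40 (adjusted p = 0.0419), a comparison in which 22.6% of all tested genes were called. MUM2 was the gene most often above the blanks, on 21 of 22 later arrays.

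SLZ1 encodes the regulatory subunit that helps Ime4 and Mum2 into the nucleus and is itself made in meiosis. Its means spread widely. From 0.64 at 0.0 h the means went to 1.31, 1.62, 3.20 and 4.05 in the early window, each above 0 on both arrays. The 0.0 h arrays were also above 0, at 1.20 (A) and 0.07 (B). On the B arrays of 1.0, 1.5 and 2.0 h the time-zero RNA was at 0.544, 0.642 and 0.134 times the blank level, which limits those sizes. The means then read 0.46, 3.53, 2.72 and -2.04 in the middle window and 1.10, 5.90 and 2.51 in the late window. At 4.5 h both arrays were low, at -1.90 and -2.18, and at 5.5 h both were high, at 5.11 and 6.69. The sizes of these extremes rest on channels below the blank level: at 5.5 h the time-zero RNA was at 0.175 (A) and 0.101 (B) times that level, and at 4.5 h the later RNA was at 0.193 and 0.324 times it.

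The late SLZ1 values at the other times came from arrays that disagreed. They were -2.80 (A) and 5.00 (B) at 5.0 h, and 5.42 (A) and -0.39 (B) at 6.0 h. The windows of SLZ1 overlapped, and no difference passed: early minus zero was 1.91 ± 1.88 (adjusted p = 0.966), middle minus early -1.38 ± 1.19 (adjusted p = 0.856) and late minus middle 2.01 ± 1.28 (adjusted p = 0.437). Without the 5.0 h A and 6.0 h B arrays, late minus middle was 4.27 ± 1.07 and passed, with an adjusted p = 0.0169. These arrays held its lowest late values and were singled out after seeing the data, so this pass is no separate support. With the 5.5 h sample left out instead, late minus middle was 0.64 ± 1.27. Late minus zero was 2.54 ± 1.94 (adjusted p = 0.649), and the late window against a ratio of 0 was 3.17 ± 0.97 (adjusted p = 0.0327), beside the same 22.6% of genes. Its difference hence depended on which late arrays were used.

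The 4.5 h sample set the 3 genes of the complex apart from each other. IME4 was at its highest there, while SLZ1 and MUM2 were at their lowest, on both arrays in each case except that the lowest SLZ1 reading on a single A array was the one at 5.0 h. The IME4 and SLZ1 means correlated at -0.32 and the IME4 and MUM2 means at -0.12 over the 12 samples, against 0.21 and 0.44 over the 11 samples other than 4.5 h. MUM2 and SLZ1 correlated at 0.68 with it and 0.52 without it. RIM4 was also at its lowest at 4.5 h, and so was IME1, the master regulator of entry into meiosis, at -3.34 (A) and -2.88 (B). Whether the 4.5 h RNA or its arrays differ in some other way was not tested.

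Of 4 further genes of the complex and its reader, 0 were called in any of the 4 comparisons. They were KAR4 and VIR1, subunits of the methyltransferase, DYN2, a dynein light chain found with it, and PHO92, which encodes the protein that reads the mark. Over all tested genes, early against zero and middle against early called 0%, late against middle 3.63% and late against zero 0.891%. With shares this low, 0 of 4 says little about these genes. PHO92 had a late minus middle difference of 2.52 ± 0.73 (adjusted p = 0.08) with late means of 3.17, 4.51 and 2.43; its 3.5 h value rests on the A array alone. Its late arrays split as those of SLZ1 did, with 0.04 (A) and 6.31 (B) at 5.0 h and 5.66 (A) and -0.81 (B) at 6.0 h. The time-zero RNA of PHO92 was above the blanks on 1 of 6 late and 1 of 8 middle arrays. That limits how far the size of its difference can be read. VIR1 was at -0.77 ± 0.35 for late minus middle (adjusted p = 0.258), and KAR4 at 0.89 ± 0.43 (adjusted p = 0.289).

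Of the splicing genes, MER1 encodes the meiosis-specific activator that binds an enhancer in its target introns. Its means were -0.35 at 0.0 h and -0.59, 0.24, 0.04 and 0.29 in the early window. They were -0.03, 0.72, -0.28 and -0.18 in the middle window and -0.04, 0.54 and 2.08 in the late window. The 6.0 h sample was the highest and lay above 0 on both arrays, at 3.01 (A) and 1.16 (B). On that B array both channels were below the blank level, at 0.675 and 0.717 times it, and the 2 spots differed by 1.95. All other means lay between -0.59 and 0.72.

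MER1 was dim. Its later RNA stood above the blanks on 6 of 22 later arrays and its time-zero RNA on 3, and in the late window on 2 and 0 of 6 arrays. The late minus middle difference was 0.80 ± 0.46 (adjusted p = 0.376) and late minus zero 1.21 ± 0.69 (adjusted p = 0.526). A difference of this size was not detectable above the spread at this signal.

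NAM8, the U1 particle protein that Mer1 works through, was the gene on which the 2 dyes differed least. Its means were -0.37 at 0.0 h, -0.01, -0.47, 0.01 and 0.49 in the early window, 0.23, -0.46, 1.11 and 0.81 in the middle window, and 1.33, -0.52 and 0.32 in the late window. Both arrays read near or above 1 at 4.0 h (1.20 and 1.02) and at 5.0 h (1.40 and 1.25), and both read below 0 at 5.5 h (-0.40 and -0.65). The windows overlapped, and late minus middle was -0.05 ± 0.46 (95% interval -1.05 to 0.95, adjusted p = 0.967). The interval leaves room for a difference of about 1 log2 unit either way. The later NAM8 RNA was above the blanks on 11 of 22 later arrays, and the time-zero RNA on 5. At 4.0 h the time-zero RNA was at 0.311 (A) and 0.269 (B) times the blank level, and the B spots differed by 1.57. At 5.5 h both channels of the A array were below that level, at 0.187 (later) and 0.202 (time-zero) times it. The time-zero RNA on the 5.5 h B array was at 0.636 times it.

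None of the other 9 U1 particle proteins passed in any comparison, beside at most 3.63% of all tested genes. Late minus middle ran from -0.55 (SNP1) to 0.94 (PRP42), with a median of 0.28 beside 0.03 over all tested genes. PRP42 was at 0.94 ± 0.36 (adjusted p = 0.18), with 3.49 and 2.92 on the 5.0 h and 5.5 h B arrays against -0.29 and -0.22 on their A partners.

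The 4 transcripts whose splicing Mer1 activates were MER2, needed for double-strand breaks, MER3 and SPO22, which promote crossovers, and AMA1, an activator of the anaphase-promoting complex. The arrays read total RNA of a gene and were not set up here to separate spliced from unspliced forms. All 4 had late minus middle differences above 0, from 0.01 (MER3) to 1.39 ± 0.87 (AMA1, adjusted p = 0.421). Of these, 0 were called, beside 3.63% of all tested genes. SPO22 was at 1.03 ± 0.39 (adjusted p = 0.172), and its late means of 1.36, 1.95 and 1.39 lay above its middle range of 0.04 to 1.31. The gap is small beside the disagreement of the arrays. The 5.0 h mean averages -0.58 (A) and 3.3 (B), and the 2 spots of the 6.0 h B array differed by 3.4. AMA1 had 1 array at 5.0 h, the A array.

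RIM4, the translational repressor with RNA recognition motifs, was bright and variable. Its means were 0.84 at 0.0 h and 2.27, 0.16, 1.78 and 3.93 in the early window. They were 1.16, 0.73, 2.69 and -1.67 in the middle window and 1.54, 1.19 and 1.22 in the late window. Both arrays read high at 0.5 h (2.06 and 2.48), 1.5 h (1.90 and 1.66) and 4.0 h (3.60 and 1.79), and both read low at 4.5 h (-1.42 and -1.93). The highest mean, at 2.0 h, came from 1.23 on the A array and 6.63 on the B array, and on that B array the time-zero RNA was at 0.0436 times the blank level.

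RIM4 stood above the blanks in the later channel on 20 of 22 later arrays and in the time-zero channel on 20. Early minus zero was 1.20 ± 1.32 (adjusted p = 0.971), and middle minus early -1.31 ± 0.83 (adjusted p = 0.779). The 0.0 h sample itself read 1.58 on the A array, although both of its RNAs were from time zero. With a ratio of 0 standing in for that sample, the early window stood at 2.04 ± 0.59, which passed the test with an adjusted p = 0.0423, beside 704 of 6283 genes (11.2%) called in that comparison. The late means lay closer together (SD 0.19, n = 3) than those of any other of the 8 genes. The 6.0 h mean, however, averages 2.73 (A) and -0.30 (B). Pooled over all 12 times, the error of a RIM4 time mean was 1.24. The small SD therefore does not show a steady late level. Late minus middle was 0.59 ± 0.90 (adjusted p = 0.776). Without the 4.5 h sample it was -0.21 ± 0.76.

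CLB3 encodes a B-type cyclin whose message Rim4 is known to hold back until the second division. Its means were 0.11, 3.54 and 2.26 in the late window and between -0.25 and 0.51 in the middle window. The 5.0 h and 5.5 h means each rest on the A array alone. Late minus middle was 1.79 ± 0.61 and was not called (adjusted p = 0.131).

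PES4 and MIP6 are the paralogs with RNA recognition motifs related to the poly(A)-binding protein. They were the 2 of the 8 genes called higher in the late than in the middle window. Of the 8 differences, 7 were above 0. PES4 stayed near 0 early, at 0.05, 0.09, -0.10 and 0.24 after -0.21 at 0.0 h. In the middle window it was at 0.03, 1.16, 0.62 and 0.30, and in the late window at 3.41, 4.33 and 2.93. All 3 late means lay above all 9 earlier ones. By array, the late values were -1.02 (A) and 7.84 (B) at 5.0 h, 3.08 and 5.59 at 5.5 h, and 5.95 and -0.08 at 6.0 h, so that 4 of the 6 arrays were above 3 and the other two were below 0.

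MIP6, which is also known to bind the messenger RNA export receptor Mex67, followed a similar course. It was at 0.03 at 0.0 h, between -0.76 and 0.28 in the early window and between -0.36 and 0.49 in the middle window. In the late window it was at 1.50, 3.11 and 3.26, above all 9 earlier samples. By array these were -1.71 (A) and 4.71 (B) at 5.0 h, 1.49 and 4.73 at 5.5 h, and 5.79 and 0.72 at 6.0 h. Both arrays were above 0 at 5.5 h and 6.0 h, and the 5.0 h A array was below 0. On the 5.5 h A array, however, the later and time-zero RNA were both below the blank level, at 0.718 and 0.195 times it. On the 6.0 h B array the later RNA was at 0.578 times that level, so neither value rests on a measured late signal.

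Late minus middle was 3.03 ± 0.37 for PES4, an 8.18-fold rise (n = 3 against 4, limma adjusted p = 7e-04), and 2.59 ± 0.43 for MIP6, a 6.02-fold rise (adjusted p = 0.00415). They ranked 61 and 95 from the highest of 6283 genes. These 2 calls among the 8 genes stand beside 3.63% of all tested genes called in the same comparison, 3.31% higher and 0.318% lower. The SEs of the fit come from the means of the times, so disagreement between dyes enters them only through those means. Computed from the A and B differences pooled over all 12 times, the SE of late minus middle was 1.28 for PES4 and 1.04 for MIP6. Late disagreement was mostly larger than the pooled SD of 3.34 (PES4) and 2.73 (MIP6), so these SEs understate it. At 5.0, 5.5 and 6.0 h, A minus B was -8.86, -2.52 and 6.02 for PES4 and -6.42, -3.24 and 5.07 for MIP6.

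The 5.0 h A and 6.0 h B arrays were singled out after seeing the data. Without them the difference was 5.51 ± 0.61 for PES4 and 4.51 ± 0.52 for MIP6, with limma adjusted p = 4.33e-05 and 6.41e-05. These 2 arrays held the lowest late values of both genes, so their removal had to raise the differences. With the A arrays alone the differences were 2.49 ± 1.10 and 1.94 ± 1.23, and with the B arrays alone 3.57 ± 1.36 and 3.24 ± 0.79. No gene on the arrays was called by limma from 1 orientation, with 810 (A) and 946 (B) at an unadjusted p under 0.05. With the 2.0 h and 4.5 h samples each moved to the next window, PES4 was at 2.23 ± 0.66 and MIP6 at 1.70 ± 0.64, and none of the 6283 genes passed in limma, while 542 had an unadjusted p under 0.05. With spots carrying the quality letter S left out, MIP6 was at 1.52 ± 0.90 (adjusted p = 0.417) while PES4 stayed at 3.04 ± 0.36 (adjusted p = 0.0011).

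Against zero, PES4 in the late window was 3.77 ± 0.55 higher, a 13.6-fold rise (n = 3 against 1, adjusted p = 0.0089). The SE from the A and B differences, again pooled over all 12 times, was 1.93. The call was lost with normexp background correction (3.38 ± 0.68, adjusted p = 0.0574), with A arrays alone (3.48 ± 1.67), with B arrays alone (4.05 ± 2.05) and with the 2 samples moved to the next window (2.95 ± 1.04). Without the 5.0 h A and 6.0 h B arrays, which held the lowest late PES4 values, the difference was 6.25 ± 0.92 (adjusted p = 0.00131). MIP6 was at 2.59 ± 0.65, which missed the threshold (adjusted p = 0.097) and passed without the 5.0 h sample, at 3.16 ± 0.53 (adjusted p = 0.0119). In this comparison 0.891% of tested genes were called higher and 0% lower, and the zero group is 1 sample assumed to vary like the others. Its MIP6 and PES4 means, 0.03 and -0.21, lay within 1 SD of all genes at 0.0 h (0.33).

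**Figure D2:**
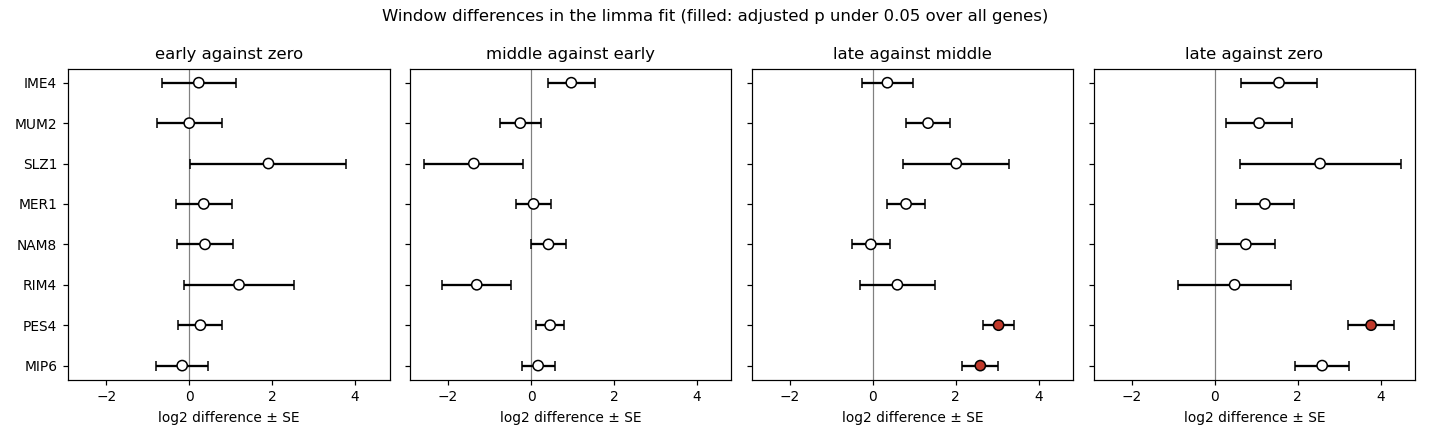
Differences between window means (log2, horizontal axis) with the SE of the limma fit for the 8 genes in 4 comparisons; filled points passed an adjusted p under 0.05 over all tested genes. The filled points are PES4 and MIP6 for late against middle and PES4 for late against zero, and the SEs of SLZ1 and RIM4 are the widest in each panel.

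Signal limited how far the PES4 and MIP6 ratios can be read as sizes. The later PES4 RNA was above the blank level on 0 of 8 early arrays, 2 of 8 middle arrays and 4 of 6 late arrays, and the later MIP6 RNA on 2 of 8, 3 of 8 and 3 of 6. On the late arrays where PES4 was high, its signal was 5.74, 1.16, 17.3 and 308 times the blank level for 5.0 h B, 5.5 h A, 5.5 h B and 6.0 h A. The time-zero RNA in the other channel of the first 3 was at 0.0337 to 0.105 times the blank level. The direction there rests on a measured late signal, whereas the size rests on a denominator below the blanks. On the 6.0 h A array both channels were measured, with the time-zero RNA at 2.90 times the blank level. For MIP6 on that array the signals were 135 and 1.3 times the blank level. On the 5.0 h B and 5.5 h B arrays the later MIP6 RNA was at 9.36 and 81 times that level. The time-zero RNA there was at 0.366 and 0.788 times it.

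**Figure D3:**
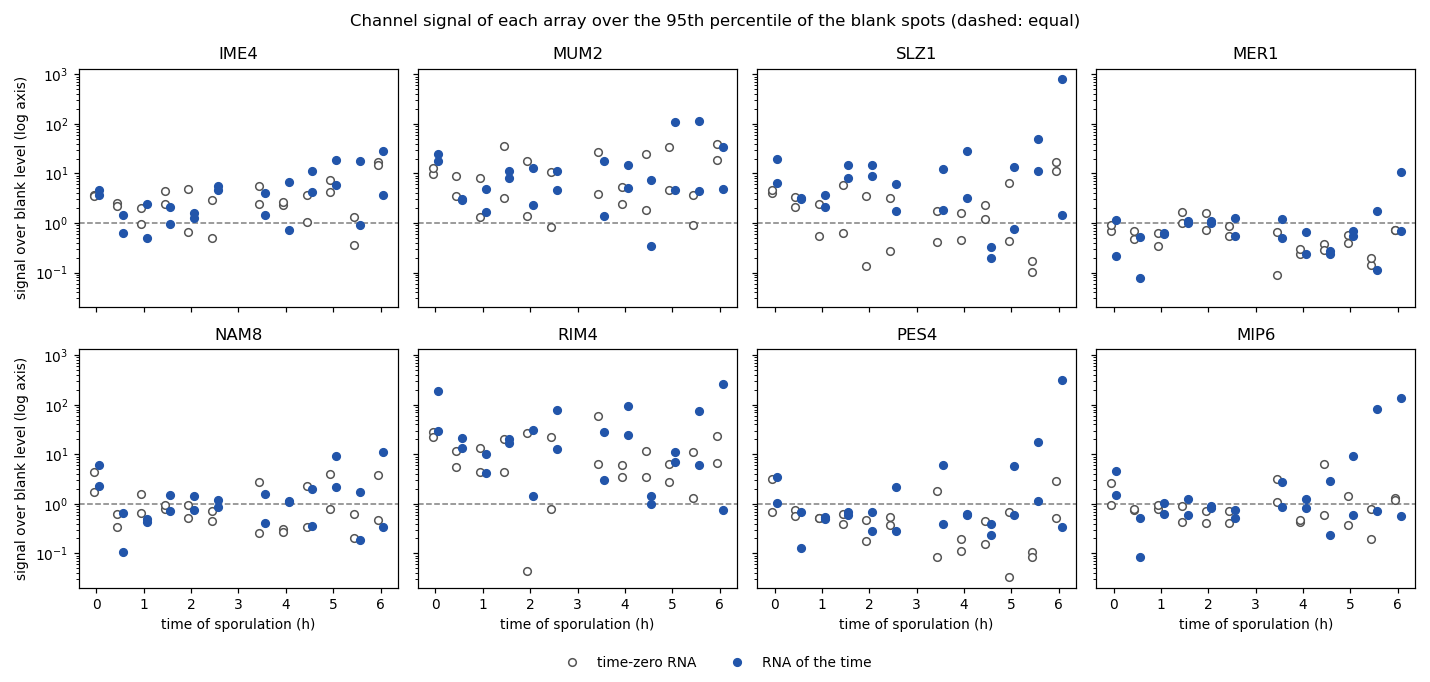
Mean signal of each gene on each array divided by the 95th percentile of the blank spots of the same channel (log axis) against hours of sporulation, with filled points for the RNA of the time and open points for time-zero RNA. MUM2, RIM4 and IME4 lie mostly above the dashed line of equality, MER1 mostly below it, and PES4 lies above it in the filled points on 4 of 6 late arrays.

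The late split between arrays was shared with the meiotic markers. PES4, MIP6 and SLZ1 were each above 4 on the 5.0 h B, 5.5 h B and 6.0 h A arrays, which are the 3 arrays with a marker median above 4 in that window, and none of these genes was above 1 on the 5.0 h A or 6.0 h B array. By sample, the median of the 7 markers ran from 0.24 to 0.74 in the early samples, 0.01 to 1.57 in the middle samples and 1.35 to 2.84 in the late samples. Late against middle, 2 of the 7 were called, both higher (SPO11 at 2.16 ± 0.30 and SPR3 at 4.88 ± 0.53), and 0 of 7 haploid and 0 of 3 vegetative markers were. Over all tested genes the share called was 3.63%. The median of the haploid markers ran from -0.15 to 0.11 late, and that of the G1 cyclin genes of vegetative cells from -1.61 to -1.3 late and -1.70 to -0.17 in the middle. Their part in the rise of PES4 and MIP6 was not tested.

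**Figure D4:**
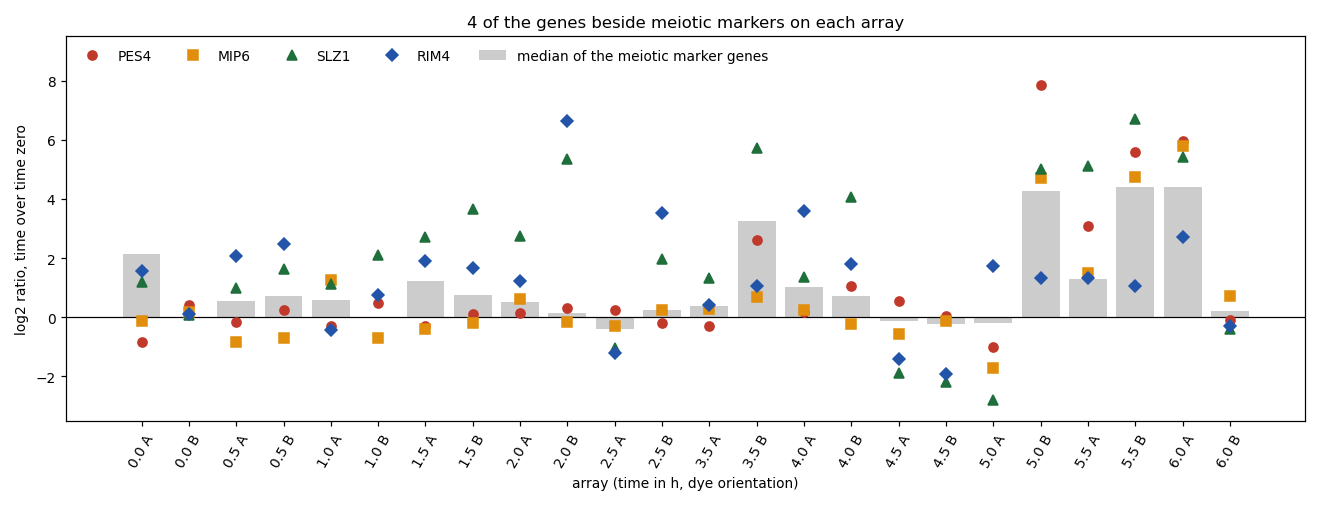
Log2 ratio over time zero (vertical axis) of PES4, MIP6, SLZ1 and RIM4 (points) and the median of the 7 meiotic marker genes (bars) on each of the 24 arrays (horizontal axis). PES4, MIP6 and SLZ1 stand high on the 5.0 h B, 5.5 h B and 6.0 h A arrays together with the markers, and stand below 1 on the 5.0 h A and 6.0 h B arrays.

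In the earlier comparisons none of the 8 genes was called. Early against zero called 0 of 8 beside 0% of all genes, with 369 genes at an unadjusted p under 0.05 in limma and none of the 8 among them. Middle against early called 0 of 8 beside 0% of all genes, with 459 at an unadjusted p under 0.05 and again none of the 8. Over late against middle, 7 of the 8 differences were above 0 with a median of 1.07, beside a median of 0.03 and 51.5% above 0 over all tested genes. Over late against zero, 8 of 8 were above 0 with a median of 1.38, beside -0.02 and 48.8%. The comparisons share samples, so these counts are not separate observations.

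Among 6 regulators of entry and of the middle switch, NDT80, the transcription factor that turns on middle sporulation genes, was the one called for late against middle, at 3.27 ± 0.49 (adjusted p = 0.00292). In that comparison 3.63% of all tested genes were called. The late NDT80 means of 3.99, 5.01 and 3.59 came from arrays split as for PES4, with 0.49 and 7.49 at 5.0 h and 7.69 and -0.51 at 6.0 h. Its later RNA was above the blanks on 3 of 6 late and 3 of 8 middle arrays and its time-zero RNA on 0 of 6 late arrays, so the size of the difference rests on signal below background. IME1, IME2, UME6, RME1 and SUM1 lay between -0.82 and 0.36 and were not called.

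The course of PES4 over the 12 samples was most like those of BIL2, NDT80 and MAM1, the last a protein that orients sister kinetochores, with Pearson r of 0.987, 0.986 and 0.985. MIP6 was most like HXT10, a hexose transporter gene (0.975), PIR5, a cell wall gene (0.967), and MUM3, needed for the outer spore wall (0.965). SLZ1 was most like the recombinase gene DMC1 (0.923), the histone gene HTB2 (0.913) and LSM5 (0.892), and RIM4 most like MPD2 (0.904), ICL2 (0.899) and the recombination kinase gene MEK1 (0.898). These r values are descriptions over samples that share arrays, and the closest of all tested genes are close by selection.

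The other genes had likenesses that the 2 orientations bore out unevenly. MUM2 was most like the sorting nexin gene SNX4 (0.989), the proteasome gene RPN8 (0.947) and the autophagy gene ATG8 (0.946), and MER1 most like YNR025C (0.921), YMR122C (0.912) and the condensin gene YCG1 (0.911). NAM8 was most like YDL199C (0.859), the ceramide synthase gene LAC1 (0.830) and VRP1 (0.815). IME4 was most like SHH3 (0.867), TIP20 (0.843) and YML083C (0.840), but over the A arrays alone r was 0.235 for TIP20 and -0.107 for YML083C, against 0.841 and 0.821 over the B arrays. RIM4 and MPD2 were at 0.462 (A) and 0.646 (B), and NAM8 and VRP1 at 0.591 and 0.448.

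Within the 28 pairs of the 8 genes, r ran from -0.63 (IME4 and RIM4) to 0.91 (PES4 and MIP6) with a median of 0.20. PES4 and MIP6 correlated at 0.90 over the A arrays and 0.93 over the B arrays, and at 0.50 over the 9 samples before the late window, so the likeness rests largely on the late samples. SLZ1 and RIM4 were at 0.58, and at 0.26 without the 4.5 h sample, where both were low. MER1 and MIP6 were at 0.78, and at 0.81 without the late samples, when both genes were near 0 and mostly below the blank level.

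In the authors' series table, the 8 genes took a broadly similar course other than at 0.5 h, though sizes differed at some times. It gives PES4 as 3.68, 4.22 and 2.98 at 5.0, 5.5 and 6.0 h, where the arrays give 3.41, 4.33 and 2.93. For MIP6 it gives 0.78, 2.58 and 2.27, where the arrays give 1.50, 3.11 and 3.26. It gives IME4 as 2.43, SLZ1 as -2.07 and RIM4 as -2.08 at 4.5 h. The 0.5 h column of that table did not follow the arrays (r = 0.157, against 0.877 to 0.963 for the other 11 columns), and RIM4 is at 0.50 there where the arrays give 2.27. SLZ1 is at -0.09 in that column where the arrays give 1.31.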

How the data were processed

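Per the labels' design text, RNA of 12 times was hybridised against time-zero RNA with dyes reversed on separate arrays. The deposited array files hold, per spot and dye, an intensity, a local background and quality letters that the files do not explain; the intensity values were taken as already background-subtracted, since some are negative. The image software's settings and the genome build are not stated. The deposited series table holds log2 ratios of unstated normalisation and centring. Headers of B arrays list the Cy5 image first; the second channel was read as Cy5 on all arrays, because its background was the higher on 12 of 12 B arrays (22 of 24 in all) and 11 of the authors' 12 deposited log2 columns followed the A and turned B ratios (r = 0.465 to 0.941).

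Spots marked U or Z, and values at or below 0, were left out, and S was kept. Log2 ratios were loess-corrected (span 0.3, 4 iterations), B arrays turned, and 2 spots and then 2 arrays averaged. With R 4.3.3 and limma 3.58.1, 4 window means were fitted to all 12 samples (lmFit, eBayes, Benjamini-Hochberg over 6283 genes). "Above the blanks" means above the 95th percentile of 250 blank spots of a channel. The number of arrays limits the precision. Symbols are from the RefSeq R64 gene table by locus tag; 8 of 8 matched. No sequence or coordinate is printed, since the files name no build.

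The members and lists were chosen with earlier results of these data known. Named are all 8 members, the 3 genes with the highest r to each, and list genes that passed or that a sentence turns on. Files held 0 other columns of sample values.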

Additional observations from a re-analysis of the deposited data

How the results depend on the processing

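The 8 genes were refitted under each alternative; the 2 settings that drop late arrays or samples were chosen after seeing the data. No paired analysis was possible because the labels carry no replicate numbers and each time is 1 pooled sample. For late against middle, 2 genes were called as reported; 1 was called with spots marked S left out (PES4, 120 genes in all beside 228), with arrays scaled to a common spread (PES4, 36 genes), without the dimmest genes by mean intensity and with genes seldom above the blanks left out (MIP6 in both, PES4 not being tested). The count was 0 with A arrays alone, B arrays alone, or windows ending at 1.5 and 4.0 h. Leaving out 1 sample at a time gave 2 to 3. Without the 5.0 h A and 6.0 h B arrays SLZ1 was called too (3 of the 8, beside 984 of 6234 genes). Without the 5.0 and 6.0 h samples only 1 late sample was left, so no count is given for that setting. For late against zero, 1 was called as reported and 0 with normexp (offset 50), A alone, B alone, the other windows and both dim-gene filters. Against a ratio of 0, 4 were called (MUM2, SLZ1, PES4 and MIP6, beside 1422 of 6283 genes, 22.6%). Without the 5.0 h sample 2 were called, and 2 without the 5.0 h A and 6.0 h B arrays. Leaving out 1 sample gave 1 to 2. For early against zero, 1 gene (RIM4) was called against a ratio of 0 (beside 11.2% of genes), and leaving out 1 sample gave 0 to 0, as for middle against early. The cause of these moves was not tested, apart from PES4 failing the dim-gene filters.

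Reversed signs concerned uncalled values. For early against zero, MUM2 was 0.04 with normexp, 0.84 from B arrays, 0.19 with the other windows and 0.16 against a ratio of 0; MIP6 was 0.11 with median centring, 0.29 from A arrays and 0.03 in the series table. RIM4 was -0.39 from A arrays; IME4 was -0.23 from B arrays and -0.30 against a ratio of 0; MER1 was -0.16 from B arrays and 0.00 against a ratio of 0; PES4 was -0.12 from B arrays. For middle against early, MIP6 was -0.44 with median centring, -0.24 from A arrays and -0.01 in the series table, MER1 -0.05 in that table, and SLZ1 0.65 and RIM4 0.73 with the other windows. For late against middle, IME4 was -0.03 with scaling and -0.17 from A arrays; NAM8 was 0.15 with median centring, 0.19 from A arrays, 0.14 with the other windows, 0.13 in the series table and 0.06 without the 2 late arrays. RIM4 was -0.41 from B arrays and -1.56 with the other windows, where SLZ1 was -0.82. For late against zero, RIM4 was -0.39 with scaling and -0.27 with the other windows, and NAM8 -0.15 without the 5.0 and 6.0 h samples. Leaving out 1 sample, signs turned for late against middle in IME4 (-0.22 to 0.98), NAM8 (-0.52 to 0.40) and RIM4 (-0.21 to 1.24), for middle against early in MER1 (-0.16 to 0.17), MIP6 (-0.04 to 0.31) and MUM2 (-0.51 to 0.11), and for early against zero in MIP6 (-0.30 to 0.04) and MUM2 (-0.16 to 0.19).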
